A study of Homo sapiens with 26 samples.

Results

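Integrins are the paired α and β receptors through which cells hold on to the matrix around them. Laminins are trimers of an α, a β and a γ chain and, with the type IV collagens, form the sheets of basement membranes. Collagens are triple helices of α chains, which build fibrils, networks, filaments or short rods, and a few of which span the cell membrane. In carcinoma cells the laminin-binding integrins and the laminin chains are known for their part in adhesion and in movement through basement membrane.

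The 3 families were taken from the table by symbol alone (ITGA and ITGB, LAMA, LAMB and LAMC, and COL followed by chain numbers), with no use of any value. They came to 79 genes of 33562: 26 integrin, 12 laminin and 41 collagen genes. Their levels were read in 26 RNA-seq libraries. The libraries come from 9 lines of MDA-MB-231Luc cells, which descend from MDA-MB-231, a human breast cancer line that lacks hormone receptors. The study asked about the place of Aurora-A kinase (AURKA), a mitotic kinase, in the cell.

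All 9 lines carry the pLUTZ mRFP vector and grew continuously in doxycycline, which switches on the rtTA-responsive promoter that drives the cDNA. NLS-AURKA (clones c2 and c3) carries AURKA cDNA with a nuclear localization signal, is labelled MUT1 and has the guide sgAURKA1. NES-AURKA (clones c1 and c2), with a nuclear export signal, and WT-AURKA (clones c1 and c2), without any signal added, are both labelled MUT2 and have the guide sgAURKA2. The 3 control lines NLS-Empty, NES-Empty and Empty have no AURKA cDNA, are labelled as having the guide sgCon and were at passages 19 to 20, against passages 32 to 35 for the 6 AURKA clones. Guide, passage and derivation from a clone therefore cannot be told apart from the presence of AURKA cDNA, nor guide and cDNA label from the nuclear signal. There are 3 libraries per line except for WT-AURKA c2, which has 2. The labels do not say whether repeated libraries are of separate cultures, and p-values measure a spread between samples that may be technical.

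Levels are RPKM, the authors' read numbers scaled by transcript length and library total. Depth estimated from the smallest values was 12.2 to 20.2 M reads per library, at which 1 RPKM of a 5 kb transcript stands for 61 to 101 reads. The titles letter the libraries: 8 of them, 1 from every line but WT-AURKA c2, are A to H, and 18 are I to Z. The sets differ widely: MALAT1, a nuclear RNA, had 174.6 to 561 RPKM in A to H and 6.11 to 33.5 RPKM in I to Z, so values are given below within each set. AURKA itself, summed over cDNA and endogenous transcript, had a lowest, median and highest level of 38.4, 48.4 and 104.6 RPKM in NLS-AURKA, 15.5, 29.4 and 37.0 RPKM in NES-AURKA, 12.7, 14.1 and 84.1 RPKM in WT-AURKA, and 34.0, 58.5 and 68.9 RPKM in control libraries. Libraries D (WT-AURKA c1, 84.1 RPKM), A (NES-AURKA c2) and W (NLS-AURKA c2, 104.6 RPKM) stood apart in AURKA from the other libraries of their lines, and calls that were lost without these 3 are given below. Whether these 3 libraries carry the right labels could not be checked here, and their values stand under the lines that the labels give.

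VIM, ESR1 and PGR matched the label of a mesenchymal line that lacks hormone receptors. VIM had 234 to 1059 RPKM in AURKA libraries and 236 to 375 RPKM in control libraries, and ESR1 and PGR stayed under 0.03 RPKM in every library. ERBB2, listed with these receptors, was found in every library, at 2.24 to 5.06 RPKM in AURKA and 3.06 to 4.75 RPKM in control libraries. The summed fibroblast markers had 0.130 to 0.737 RPKM in AURKA libraries and 0.217 to 1.39 RPKM in control libraries. LUM reached 0.491 RPKM in AURKA and 1.34 RPKM in control libraries, and was at 0 in 2 libraries. PDGFRB was found in every library and reached 0.719 RPKM in AURKA and 0.120 RPKM in control libraries. DCN was at 0 in 21 of 26 libraries and PDGFRA in 14. The summed endothelial markers had 0.438 to 4.55 RPKM in AURKA libraries and 0.509 to 0.931 RPKM in control libraries, nearly all of it KDR and PECAM1, with CDH5 at 0 in 13 libraries. The summed leukocyte markers had 8.07 to 51.7 RPKM in AURKA libraries and 1.69 to 12.1 RPKM in control libraries; LAPTM5 made up almost the whole sum, PTPRC stayed at or under 0.128 RPKM and CD3E was at 0 in 25 libraries.

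Of the 79 genes, 34 (12 integrin, 9 laminin and 13 collagen) reached 1 RPKM in at least 2 libraries and were tested, and 21 did so in all 26. LAMA1, COL6A3 and COL7A1 reached it in only 4, 2 and 5 libraries, and LAMA4 in 16, all of them AURKA libraries. The other 45 (14 integrin, 3 laminin and 28 collagen genes) never exceeded 1.41 RPKM. They included COL1A1, COL1A2 and COL3A1, the chains of the main fibrillar collagens of connective tissue, at no more than 0.758, 0.269 and 0.0234 RPKM. The integrin α subunits of leukocytes ITGAL, ITGAM, ITGAX and ITGAD stayed at or under 0.0495 RPKM and ITGA4, a receptor for fibronectin and VCAM1, at or under 0.0167 RPKM. Only COL4A4, COL27A1, ITGA10 and COL4A5 among the 45 reached 1 RPKM, each in 1 library.

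The same integrins led the pool in all lines. ITGB1, the β subunit that pairs with the largest number of α subunits, ITGA3 and ITGA6, both laminin-binding α subunits, together made up 72.8 to 78.5% of the summed integrin RPKM of a line. ITGB1 had a lowest, median and highest level of 167, 225 and 241 RPKM in NLS-AURKA, 190, 235 and 317 RPKM in NES-AURKA, 207, 216 and 233 RPKM in WT-AURKA and 176, 198 and 209 RPKM in control libraries lettered I to Z. These ranges overlap, and AURKA and control lines did not differ by the test (log2 difference 0.09, SE 0.112, limma adjusted p = 0.598). The integrins called between groups were instead less abundant β subunits and the α subunits ITGA6, ITGA1, ITGA2 and ITGAE. Over I to Z libraries ITGA6 was 46.4 to 46.9% of the summed integrin α RPKM in NLS-AURKA and 24.3 to 28.9% in control lines. ITGA3 was 32.0 to 33.1% of it in NLS-AURKA and 45.4 to 52.4% in control lines.

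**Figure D1:**
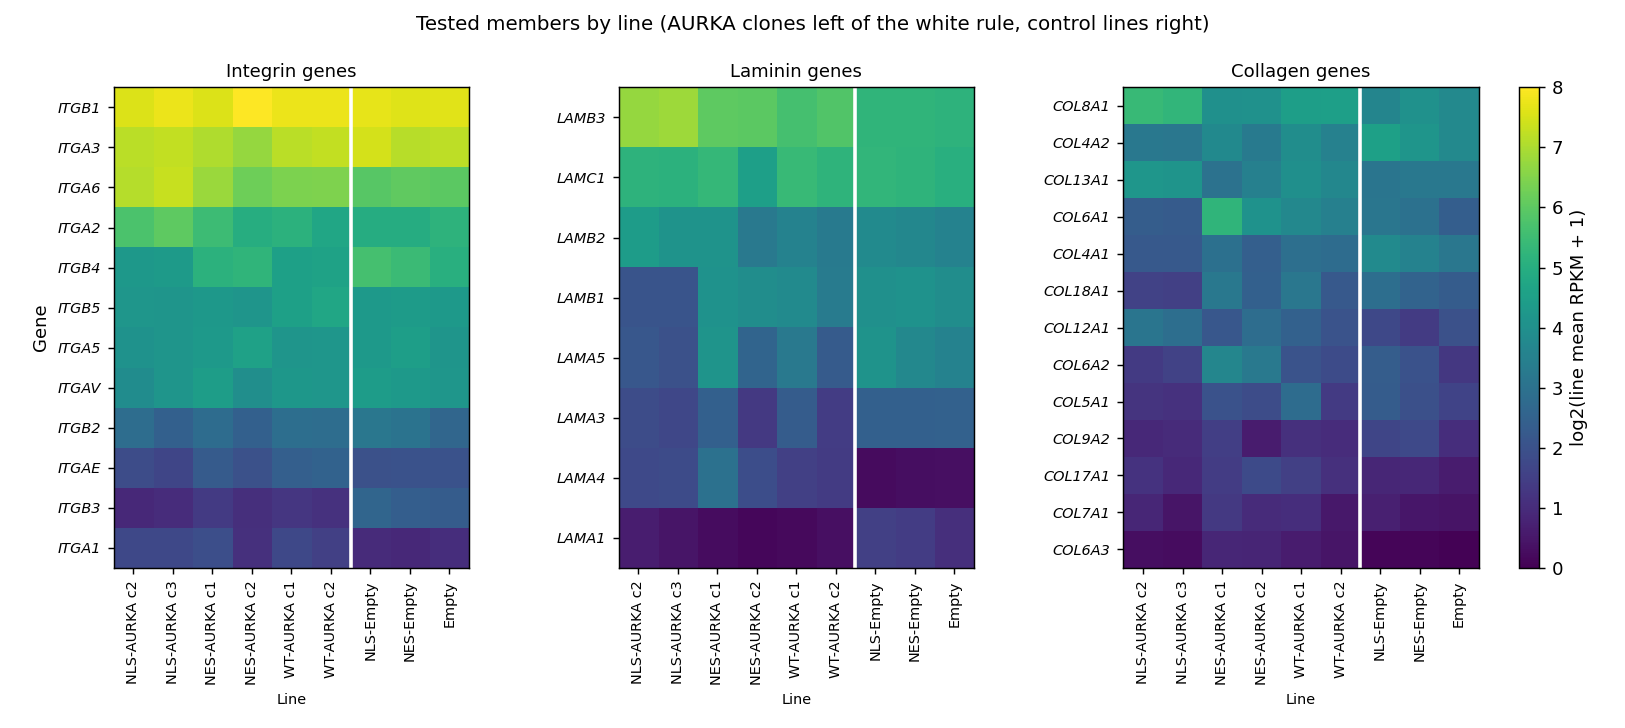
Level of 33 of the 34 tested integrin, laminin and collagen genes, as log2 of the line's mean RPKM plus 1, with the 9 lines in columns from the NLS-AURKA clones to the control lines. ITGB1 and ITGA3 are high in every line, LAMB1 is at its lowest in the NLS-AURKA clones at 3.23 RPKM, and LAMA4 is lowest in the 3 control lines.

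Set against the control lines, the 6 AURKA lines had less ITGB3, the β subunit of the αvβ3 vitronectin receptor, with more of the laminin α chain LAMA4 and less of LAMA1. Of the 34 tested genes 7 were higher and 3 lower at a limma adjusted p under 0.05, in all 29.4%, where 19.2% of all 12589 tested genes were called, 8.85% higher and 10.4% lower. The median log2 difference was 0.02 over the 34 genes and -0.02 over all genes. By family, 2 integrins were higher and 1 lower of 12, 2 laminins higher and 1 lower of 9, and 3 collagens higher and 1 lower of 13. Each comparison was repeated 35 times without 1 line or 1 library, and ITGB3 was called in all of these repeats and in every other setting tried. So were LAMA1 and LAMA4, also with no filter on low values, but LAMA4 passed the filter through AURKA libraries alone and LAMA1 through 3 control libraries and library H, that is, mainly where each is high. Without libraries A, D and W, a setting chosen after the data were seen, 7 genes were called (15.9% of all genes were), and COL12A1, COL17A1 and COL6A3 were lost. The count was 5 without Empty, 3 without NES-Empty, 3 without NLS-Empty and 6 without library E.

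ITGB3 was low in every AURKA library. Among the I to Z libraries it had 0.865, 0.558, 0.720 and 0.712 RPKM in NLS-AURKA, 1.12, 1.23, 1.74 and 0.971 RPKM in NES-AURKA and 1.32, 1.23, 1.24 and 1.13 RPKM in WT-AURKA, against 2.76, 3.71 and 5.00 RPKM as lowest, median and highest of the 6 control libraries. Among A to H it had 1.27, 1.58, 2.38, 0.607 and 1.60 RPKM in AURKA libraries and 4.66, 6.41 and 5.92 RPKM in control libraries. No AURKA library reached the lowest control library in either set, and the difference was -1.32 on the log2 scale (with SE 0.116 and limma adjusted p = 0.000149), between -1.39 and -1.23 over the 35 repeats.

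The same gene was lower in each clone when it was set against its matched empty-vector line in a fit to the 26 libraries. The log2 differences were -1.70 and -1.63 for NLS-AURKA c2 and c3 against NLS-Empty (SE 0.241 each, adjusted p = 3.62e-05 and 6.43e-05). They were -1.01 and -1.30 for NES-AURKA c1 and c2 against NES-Empty (SE 0.241 each, adjusted p = 0.00662 and 0.00123). They were -1.08 and -1.20 for WT-AURKA c1 and c2 against Empty (SE 0.241 and 0.269, adjusted p = 0.00514 and 0.00751). ITGB3 was the only one of the 34 genes called, at an adjusted p under 0.05 and a log2 difference of at least 1, in both clones of NES-AURKA and in both of WT-AURKA, where 1.7% and 2.62% of all genes were called, 1.02% and 0.921% of them lower. Within I to Z the values of the NES-AURKA clones, -0.95 and -0.85, were under that size. The call in both clones was lost without library C, S or T for NES-AURKA and without E, Q or R for WT-AURKA. These clone comparisons use the same libraries as the group comparison.

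ITGAV, the α partner of β3, was not called: its line means were 13.8 and 17.1 RPKM in NLS-AURKA, 20.9 and 14.5 RPKM in NES-AURKA, 17.7 and 17.3 RPKM in WT-AURKA, and 20.3, 18.8 and 17.5 RPKM in the control lines. ITGA2B, the other α partner of β3, stayed at or under 0.0398 RPKM in every library.

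ITGA1 and ITGA6 were higher in the AURKA lines. ITGA1, the α subunit of a collagen receptor, had a lowest, median and highest level of 0.662, 1.37 and 2.48 RPKM in AURKA libraries and 0.539, 0.735 and 0.852 RPKM in control libraries lettered I to Z. In A to H it had 4.33, 4.14, 6.08, 0.668 and 3.32 RPKM in AURKA libraries and 1.55, 1.56 and 1.51 RPKM in control libraries. All but the AURKA libraries X and A exceeded every control library of their set (log2 difference 0.56, SE 0.136, limma adjusted p = 0.0186), and the call was lost in 6 repeats, those without Empty, NES-Empty, NLS-Empty, F, U or H, with an adjusted p of up to 0.0907.

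ITGA6, the α subunit of the laminin receptors α6β1 and α6β4, had 77.8, 107 and 193 RPKM in AURKA libraries and 62.0, 66.02 and 75.8 RPKM in control libraries lettered I to Z, and 62.4 to 101 RPKM in AURKA and 49.1 to 52.8 RPKM in control libraries lettered A to H. The groups did not overlap within either set, and differed by 0.72 on the log2 scale (with SE 0.214 and limma adjusted p = 0.0402); 12 of the 35 repeats lost the call, among them each repeat without a whole control line, with an adjusted p of up to 0.14. ITGB4, its hemidesmosomal partner, was not called (log2 difference -0.69, SE 0.224, adjusted p = 0.0554). The ratio of ITGA6 to ITGB4 RPKM in I to Z libraries was 10.1 to 11.9 in NLS-AURKA, 1.35 to 3.82 in NES-AURKA, 3.34 to 5.05 in WT-AURKA and 1.45 to 2.71 in control libraries. In A to H it was 3.43 to 4.37 in NLS-AURKA, 2.17 to 3.75 in NES-AURKA, 3.24 in WT-AURKA and 0.753 to 1.29 in control libraries, so that NLS-AURKA and NES-AURKA overlap there.

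LAMA4 and LAMA1 differed in opposite directions, while LAMA5 had the highest mean of the laminin α chains in every line over all libraries. LAMA5 made up 35.8 to 38.0% of the summed laminin α RPKM in NLS-AURKA, 52.6 to 58.3% in NES-AURKA, 51.4 to 57.9% in WT-AURKA and 63.6 to 70.9% in control lines. Over I to Z libraries alone it was 26.6 to 30.4% in NLS-AURKA, below LAMA3 (30.7 to 31.0%) and LAMA4. It still led there in NES-AURKA (56.3 to 64.0%), WT-AURKA (49.9 to 51.4%) and control lines (51.4 to 63.1%). LAMA4, found in laminins of vessels, fat and muscle, had a lowest, median and highest level of 0.827, 1.59 and 2.11 RPKM in AURKA libraries and 0.0405, 0.0762 and 0.109 RPKM in control libraries lettered I to Z. In A to H it had 5.02, 5.36, 17.0, 4.68 and 2.26 RPKM in AURKA libraries and 0.603, 0.539 and 0.437 RPKM in control libraries. Every AURKA library exceeded every control library in both sets (log2 difference 1.45, SE 0.198, limma adjusted p = 0.0013). LAMA4 made up 31.2 to 35.9% of the summed laminin α RPKM in NLS-AURKA, 20.5 to 25.3% in NES-AURKA and 21.6 to 23.1% in WT-AURKA, against 1.03 to 2.30% in control lines, over I to Z libraries. LAMA4 passed the filter only where it is high, so its place among the tested genes follows from that difference.

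LAMA1, the α chain of the laminin of early embryos, went the other way. It had 0.0225, 0.154 and 0.274 RPKM in AURKA libraries and 0.668, 0.682 and 0.994 RPKM in control libraries lettered I to Z, and 0.0899 to 1.35 RPKM in AURKA and 2.04 to 3.84 RPKM in control libraries lettered A to H. No AURKA library reached a control library of its set (log2 difference -0.89, SE 0.114, limma adjusted p = 0.00099). LAMA1 was a minor chain in both groups, with 0.725 to 6.16% of the summed laminin α RPKM in AURKA lines and 6.70 to 8.97% in control lines over all libraries. LAMA1 too passed the filter only through libraries where it is high, the A to H control libraries among them.

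LAMB3, the β chain of laminin-332, the main laminin under stratified epithelia, was the most abundant laminin chain in 8 of the 9 lines, LAMC1 being above it in NLS-Empty. It had 51.1, 56.7 and 105 RPKM in AURKA libraries and 34.8, 39.1 and 44.5 RPKM in control libraries lettered I to Z, and 38.2 to 136 RPKM in AURKA and 28.0 to 31.5 RPKM in control libraries lettered A to H. The groups did not overlap within a set, and the highest AURKA values are those of NLS-AURKA. AURKA lines differed by 0.97 on the log2 scale (with SE 0.252 and limma adjusted p = 0.025), and the 3 repeats without a whole control line lost the call (log2 difference 0.94 without Empty, 0.98 without NES-Empty and 0.98 without NLS-Empty, with an adjusted p of up to 0.097). LAMA3, the α chain of laminin-332, was not called, with a log2 difference of -0.26 (SE 0.166, adjusted p = 0.306).

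Among the 4 called collagens, COL12A1 and COL4A1 had the largest differences. COL12A1, a fibril-associated collagen, had 2.24, 3.16 and 10.6 RPKM in AURKA libraries and 1.21, 1.89 and 2.51 RPKM in control libraries lettered I to Z; of the AURKA libraries only U lies within the control range. The log2 difference was 0.83 (SE 0.223, limma adjusted p = 0.0281), and the call was lost without NES-Empty, NLS-Empty, D, A or X, with an adjusted p of up to 0.141, and was 0.62 (adjusted p = 0.0892) without A, D and W together. COL17A1, a transmembrane collagen of hemidesmosomes, had 0.798, 1.18 and 2.11 RPKM in AURKA and 0.578, 0.832 and 0.943 RPKM in control libraries lettered I to Z (log2 difference 0.49, SE 0.153, adjusted p = 0.0491). COL6A3, the long chain of collagen VI, stayed at or under 1.12 RPKM in AURKA and 0.162 RPKM in control libraries (log2 difference 0.45, SE 0.143, adjusted p = 0.0493). COL17A1 lost its call in 24 of the repeats and COL6A3 in 26. COL17A1 passed the filter through AURKA libraries alone and COL6A3 through the NES-AURKA libraries F and A alone. Their places among the tested genes therefore follow from where they are high.

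COL4A1 and COL4A2, the chains of the network that every basement membrane holds, lie head to head on chromosome 13, with 127 bases between their starts. Because their levels parted here, the promoter window of COL4A1 is shown. It runs from 250 bases before to 50 bases after the start in RefSeq (GRCh38.p14, chr13:110307108-110307407, minus strand), and 226 of its bases are also in the window of COL4A2 (chr13:110307034-110307333, plus strand), read there on the other strand. The capitals mark GGGCGG (GC box) and CCAAT, sought on both strands: 2 GC boxes and 1 CCAAT box, in a window of 76.7% G and C.
COL4A1: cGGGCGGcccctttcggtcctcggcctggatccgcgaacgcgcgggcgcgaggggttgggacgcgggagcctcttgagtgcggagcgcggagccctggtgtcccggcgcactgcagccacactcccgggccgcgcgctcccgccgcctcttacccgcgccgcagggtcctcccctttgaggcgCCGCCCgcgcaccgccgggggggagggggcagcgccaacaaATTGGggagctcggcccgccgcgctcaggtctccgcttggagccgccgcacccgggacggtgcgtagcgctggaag
Of 35116 promoters of this length, 45% hold GGGCGG and 34.6% CCAAT, and of the 56 members with an entry 31 and 13 do, counted over the first listed window of each.

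COL4A1 had a lowest, median and highest level of 2.14, 3.82 and 6.32 RPKM in AURKA libraries and 5.10, 5.84 and 8.45 RPKM in control libraries lettered I to Z, which overlap, and of 4.99 to 12.4 RPKM in AURKA and 13.3 to 24.4 RPKM in control libraries lettered A to H, which do not. The log2 difference was -0.79 (SE 0.203, limma adjusted p = 0.0239) over all libraries, -1.34 (adjusted p = 0.02) within A to H and -0.50 (adjusted p = 0.171) within I to Z. The repeats without NES-Empty, NLS-Empty, E or C lost the call, with log2 differences of -0.80, -0.63, -0.66 and -0.60 and an adjusted p of up to 0.126. COL4A2 differed by -0.28 (SE 0.215, adjusted p = 0.386), by -1.12 within A to H (adjusted p = 0.0257) and by 0.19 within I to Z (adjusted p = 0.649). The ratio of COL4A2 to COL4A1 RPKM in I to Z libraries was 1.64 to 2.03 in NLS-AURKA, 1.44 to 1.81 in NES-AURKA, 1.61 to 1.79 in WT-AURKA and 0.838 to 1.11 in control libraries. In A to H it was 2.49 to 2.50 in NLS-AURKA, 2.07 to 2.63 in NES-AURKA, 2.82 in WT-AURKA and 1.89 to 2.18 in control libraries. The AURKA and control ratios were apart in I to Z and touched in A to H, where the lowest NES-AURKA ratio lay within the control range.

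**Figure D2:**
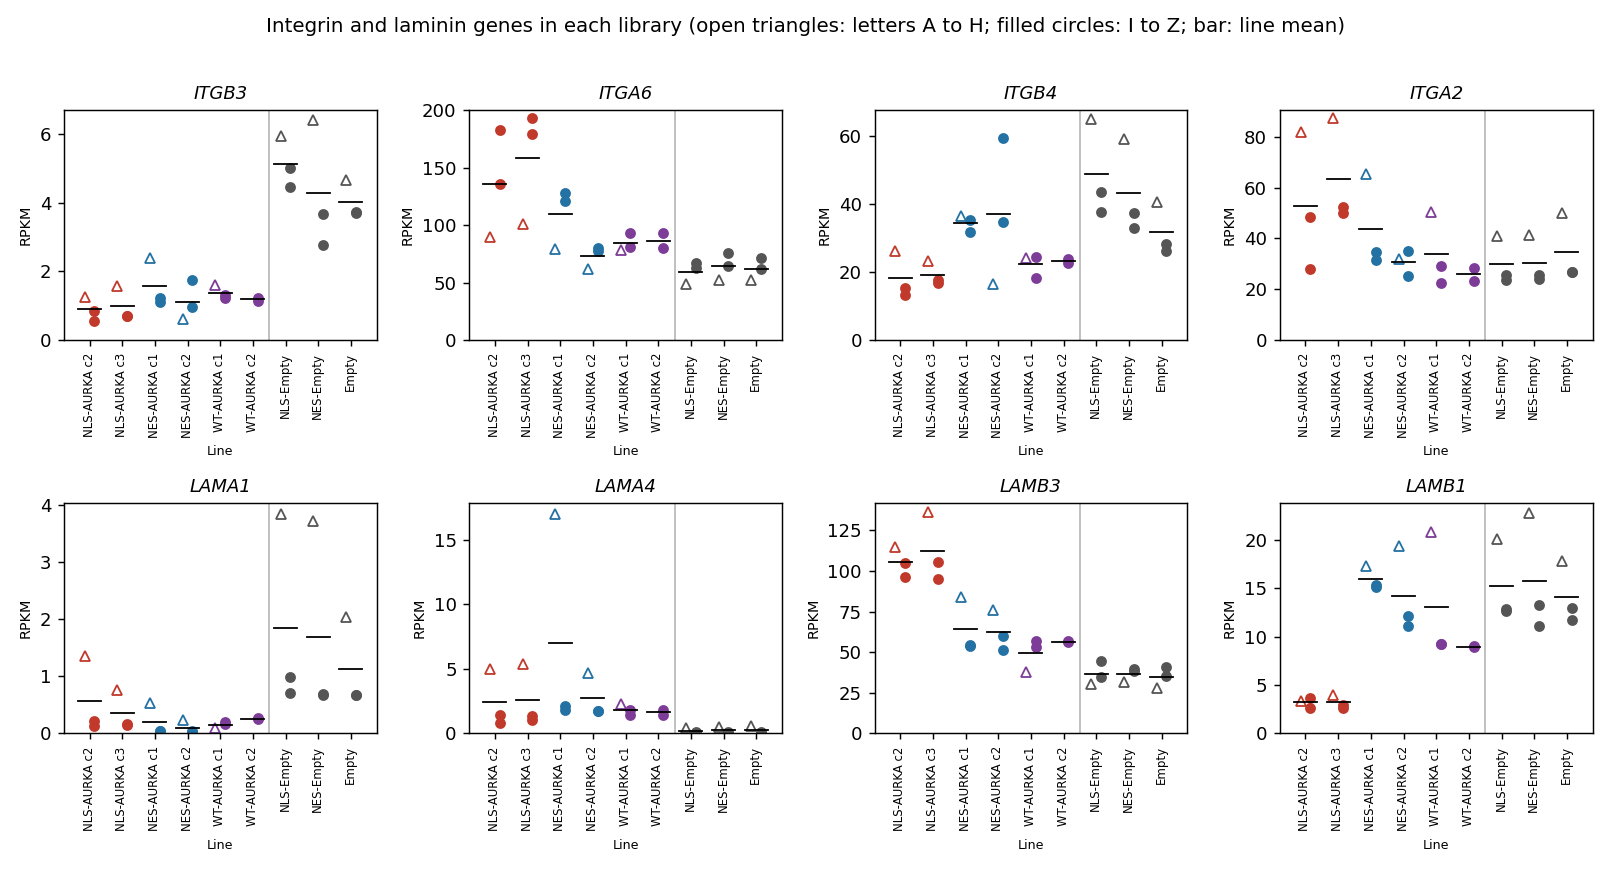
RPKM of 4 integrin and 4 laminin genes in each library, grouped as NLS-AURKA, NES-AURKA, WT-AURKA and control, with open triangles for libraries A to H, filled circles for I to Z and a bar at the line mean. ITGB3 is below every control library of its set in all AURKA libraries, and LAMB1 is 2.63 to 4.03 RPKM in the 6 NLS-AURKA libraries, below all 20 other libraries.

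NLS-AURKA set against NES-AURKA compares AURKA lines whose cDNA carries a nuclear localization signal with those whose cDNA carries a nuclear export signal. The lines also differ in guide and cDNA label, and where the kinase lay was not measured here. The NLS-AURKA lines had far less LAMB1 and less collagen VI and XVIII, and more LAMB3, COL8A1 and COL13A1. Of the 34 genes 6 were higher and 11 lower, 50% in all, where 33.2% of all tested genes were called, 19.1% higher and 14.1% lower. The median log2 difference was -0.21 over the 34 genes and 0.05 over all genes. Of the integrins 2 were higher and 2 lower, of the laminins 2 and 4, and of the collagens 2 and 5. LAMB1 and COL13A1 were called in every setting, as was COL6A3, which was tested only because the NES-AURKA libraries F and A reached 1 RPKM but was called with no filter too. LAMB3, COL18A1, COL6A1, COL6A2 and COL8A1 were called in all 35 repeats without a line or library. Without A, D and W 16 genes were called (36.3% of all genes were), and ITGA6, LAMA4 and COL17A1 were lost. The count was 11 without NLS-AURKA c2, 10 without NLS-AURKA c3 and 11 without library C.

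LAMB1, the β chain of many widespread laminins, separated NLS-AURKA from every other line. It had 3.69, 2.63, 2.99 and 2.68 RPKM in NLS-AURKA, 15.1, 15.3, 11.1 and 12.1 RPKM in NES-AURKA and 9.27, 9.21, 8.96 and 9.02 RPKM in WT-AURKA, and 11.1, 12.8 and 13.3 RPKM as lowest, median and highest of the control libraries lettered I to Z. In A to H it had 3.37 and 4.03 RPKM in NLS-AURKA, 17.3 and 19.4 RPKM in NES-AURKA, 20.8 RPKM in WT-AURKA and 17.8 to 22.8 RPKM in control libraries. The NLS-AURKA libraries overlapped with none of the others. LAMB1 differed by -1.91 on the log2 scale (with SE 0.131 and limma adjusted p = 3.82e-05) from NES-AURKA and -1.45 (SE 0.131, adjusted p = 0.000117) from WT-AURKA.

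LAMB3 took the greater part of the β pool in these lines. It had 96.3, 105, 105 and 95.2 RPKM in NLS-AURKA, 54.1, 54.8, 51.1 and 59.8 RPKM in NES-AURKA and 56.8, 53.1, 56.7 and 56.2 RPKM in WT-AURKA libraries lettered I to Z. The NLS-AURKA libraries lie well above both other groups, whose ranges overlap (log2 difference 0.79, SE 0.0998, limma adjusted p = 0.000618 from NES-AURKA, and 1.03, SE 0.0998, adjusted p = 0.000158 from WT-AURKA). LAMB3 was 85.9 to 87.2% of the summed laminin β RPKM in NLS-AURKA, 71.3 to 74.9% in NES-AURKA, 76.1 to 76.4% in WT-AURKA and 67.2 to 69.1% in control lines, over I to Z libraries. LAMB1 was, over the same libraries, 2.47 to 2.70% of it in NLS-AURKA, 15.7 to 20.0% in NES-AURKA, 12.1 to 12.8% in WT-AURKA and 21.6 to 22.2% in control lines. The ratio of LAMB3 to LAMB1 was 26.1 to 39.9 in NLS-AURKA, 3.57 to 4.93 in NES-AURKA, 1.84 to 6.33 in WT-AURKA and 1.38 to 3.58 in control libraries of both sets.

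The promoter windows of these oppositely moving β chains are shown because the genes' levels separated the NLS-AURKA lines. Both are RefSeq windows of GRCh38.p14 from 250 bases before to 50 bases after the start, LAMB1 at chr7:108003112-108003411 on the minus strand, and for LAMB3, which has several listed starts, the windows at chr1:209652376-209652675 and chr1:209651325-209651624, also on the minus strand. The capitals mark matches on both strands to the GC box and CCAAT box given above and to the AP-1 site, spelled TGANTCA with N for any base.
LAMB1: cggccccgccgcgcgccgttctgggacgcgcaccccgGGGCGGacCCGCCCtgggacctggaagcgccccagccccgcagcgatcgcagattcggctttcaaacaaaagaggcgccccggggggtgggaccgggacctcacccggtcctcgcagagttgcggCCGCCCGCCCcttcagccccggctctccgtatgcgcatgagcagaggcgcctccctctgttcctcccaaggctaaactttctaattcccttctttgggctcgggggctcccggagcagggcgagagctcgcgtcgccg
LAMB3, start 1: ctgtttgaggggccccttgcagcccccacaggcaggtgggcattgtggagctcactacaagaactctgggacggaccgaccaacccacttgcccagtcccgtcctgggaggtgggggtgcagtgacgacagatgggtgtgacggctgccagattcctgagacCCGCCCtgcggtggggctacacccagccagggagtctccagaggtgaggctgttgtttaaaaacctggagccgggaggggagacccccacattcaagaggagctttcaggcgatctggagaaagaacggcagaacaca
LAMB3, start 3: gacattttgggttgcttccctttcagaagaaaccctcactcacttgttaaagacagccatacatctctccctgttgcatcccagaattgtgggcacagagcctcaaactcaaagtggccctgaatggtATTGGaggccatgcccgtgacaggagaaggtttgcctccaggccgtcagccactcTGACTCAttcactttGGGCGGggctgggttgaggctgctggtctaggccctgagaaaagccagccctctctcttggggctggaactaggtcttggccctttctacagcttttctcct
The LAMB1 window has 4 GC boxes, 2 of which overlap, and 71.0% G and C. The first LAMB3 window has 1 GC box and 61.3% G and C, and the third has 1 GC box, 1 CCAAT box and 1 AP-1 site and 53.7% G and C. TGANTCA is in 7.71% of the 35116 promoters and, counted over the first listed window of each, in 2 of the 56 members with an entry. LAMB3 is not among these 2, as its first window lacks the site.

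LAMA5, LAMB2 and LAMA4 were called in fewer of the repeats. LAMA5, the α chain of the most widespread adult laminins, had 1.62, 0.590, 0.880 and 0.906 RPKM in NLS-AURKA and 4.34, 4.46, 7.02 and 3.85 RPKM in NES-AURKA libraries lettered I to Z. In A to H it had 8.23 and 7.05 RPKM in NLS-AURKA and 40.6 and 4.03 RPKM in NES-AURKA, where the groups overlap. Its log2 difference was -1.29 (SE 0.309, limma adjusted p = 0.0121), -1.56 (adjusted p = 0.00107) within I to Z and -0.75 (adjusted p = 0.636) within A to H, and 5 repeats, those without NLS-AURKA c2 or c3, E, C or X, lost it with an adjusted p of up to 0.0859. LAMB2, the β chain of basement membranes of muscle and kidney, was higher (log2 difference 0.71, SE 0.171, adjusted p = 0.0124, lost in 7 repeats), and LAMA4 lower (-0.51, SE 0.171, adjusted p = 0.0485, lost in 28). LAMC1, the γ chain of most laminins, was not called: it had 24.9, 32.3 and 39.4 RPKM as lowest, median and highest in NLS-AURKA and 20.1, 24.4 and 29.5 RPKM in NES-AURKA libraries lettered I to Z, and 29.3 to 36.1 RPKM in control libraries.

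**Figure D3:**
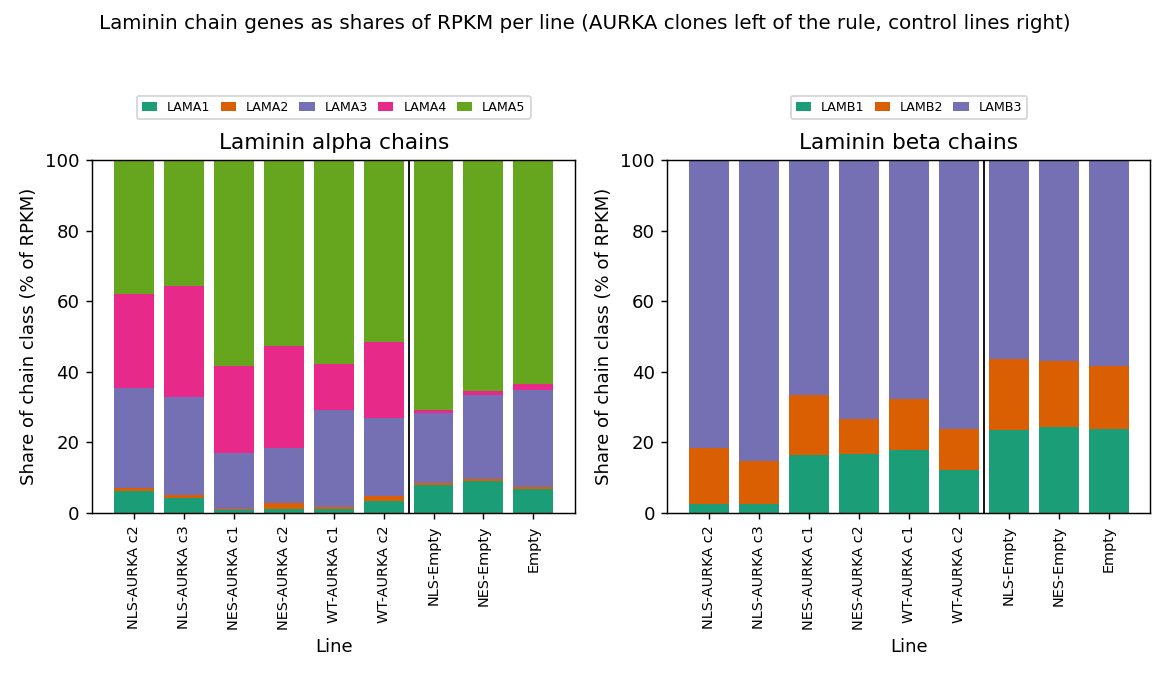
Share of each laminin chain in the summed RPKM of its class (α or β) in each of the 9 lines, as stacked bars that add up to the whole class. LAMB3 takes 81.5 and 85.3% of the β class in the NLS-AURKA clones and 56.3 to 58.2% in the control lines, over all libraries.

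Collagen VI, whose chains make beaded microfibrils, was lower in NLS-AURKA than in NES-AURKA. COL6A1 had 1.78, 1.91, 2.04 and 2.27 RPKM in NLS-AURKA and 25.6, 26.5, 22.3 and 11.45 RPKM in NES-AURKA libraries lettered I to Z, and 8.79 and 7.55 RPKM in NLS-AURKA and 56.7 and 14.1 RPKM in NES-AURKA libraries lettered A to H. WT-AURKA had 12.8, 9.04, 9.84 and 10.7 RPKM in I to Z, a range that overlaps with NES-AURKA. In A to H it had 15.3 RPKM, above the lower NES-AURKA library, and COL6A1 was not called between these 2 groups. Control libraries had 1.95, 3.27 and 4.25 RPKM as lowest, median and highest in I to Z. In A to H they had 8.66 to 15.9 RPKM, a range that holds the lower NES-AURKA library and the higher NLS-AURKA library. No NLS-AURKA library reached an NES-AURKA library of its set (log2 difference -2.46, SE 0.323, limma adjusted p = 0.000718), though within A to H alone the log2 difference of -1.69 had an adjusted p of 0.132. COL6A2 had 0.700, 0.501, 0.558 and 0.523 RPKM in NLS-AURKA and 3.23, 3.24, 10.97 and 6.95 RPKM in NES-AURKA libraries lettered I to Z. The groups are again apart, with NES-AURKA c2 above c1, the reverse of their order for COL6A1. In A to H COL6A2 had 3.46 and 4.82 RPKM in NLS-AURKA and 29.2 and 7.52 RPKM in NES-AURKA, also apart, but with c1 above c2 (log2 difference over all libraries -1.91, SE 0.239, adjusted p = 0.000591). COL6A3 was also lower (-0.55, SE 0.0909, limma adjusted p = 0.00204), at 0.124 to 0.310 RPKM in NLS-AURKA and 0.434 to 1.12 RPKM in NES-AURKA libraries. Control libraries had 0.0170 to 0.0541 RPKM of COL6A3 in I to Z and 0.0526 to 0.162 RPKM in A to H, below the NLS-AURKA libraries of each set.

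COL8A1, a short network-forming collagen, was the leading collagen of the NLS-AURKA lines, as it was of the WT-AURKA lines, over all libraries. It had 54.5, 28.99, 39.7 and 37.9 RPKM in NLS-AURKA, 13.8, 13.6, 12.6 and 16.4 RPKM in NES-AURKA and 21.1, 25.1, 22.8 and 21.0 RPKM in WT-AURKA libraries, with 12.1, 14.3 and 19.7 RPKM as lowest, median and highest in control libraries, all lettered I to Z. NLS-AURKA stood above the other groups, and NES-AURKA overlapped with the controls (log2 difference from NES-AURKA 1.28, SE 0.129, limma adjusted p = 0.000238). COL8A1 was 51.8 to 52.9% of the summed collagen RPKM in NLS-AURKA, 18.6 to 20.4% in NES-AURKA, 28.9 to 30.0% in WT-AURKA and 26.3 to 36.0% in control lines over I to Z. COL13A1, a transmembrane collagen, had 15.5, 13.2, 14.3 and 14.9 RPKM in NLS-AURKA and 6.07, 6.27, 9.45 and 10.8 RPKM in NES-AURKA, with no overlap (log2 difference 0.91, SE 0.148, adjusted p = 0.00195). COL18A1, a basement membrane collagen that is the source of endostatin, had 1.22, 0.614, 1.04 and 0.910 RPKM in NLS-AURKA and 3.72, 3.46, 4.01 and 3.03 RPKM in NES-AURKA, also with no overlap (log2 difference -1.23, SE 0.230, adjusted p = 0.00374). COL17A1 was lower by -0.48 on the log2 scale (SE 0.154, adjusted p = 0.0407), a call that 15 repeats lost.

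**Figure D4:**
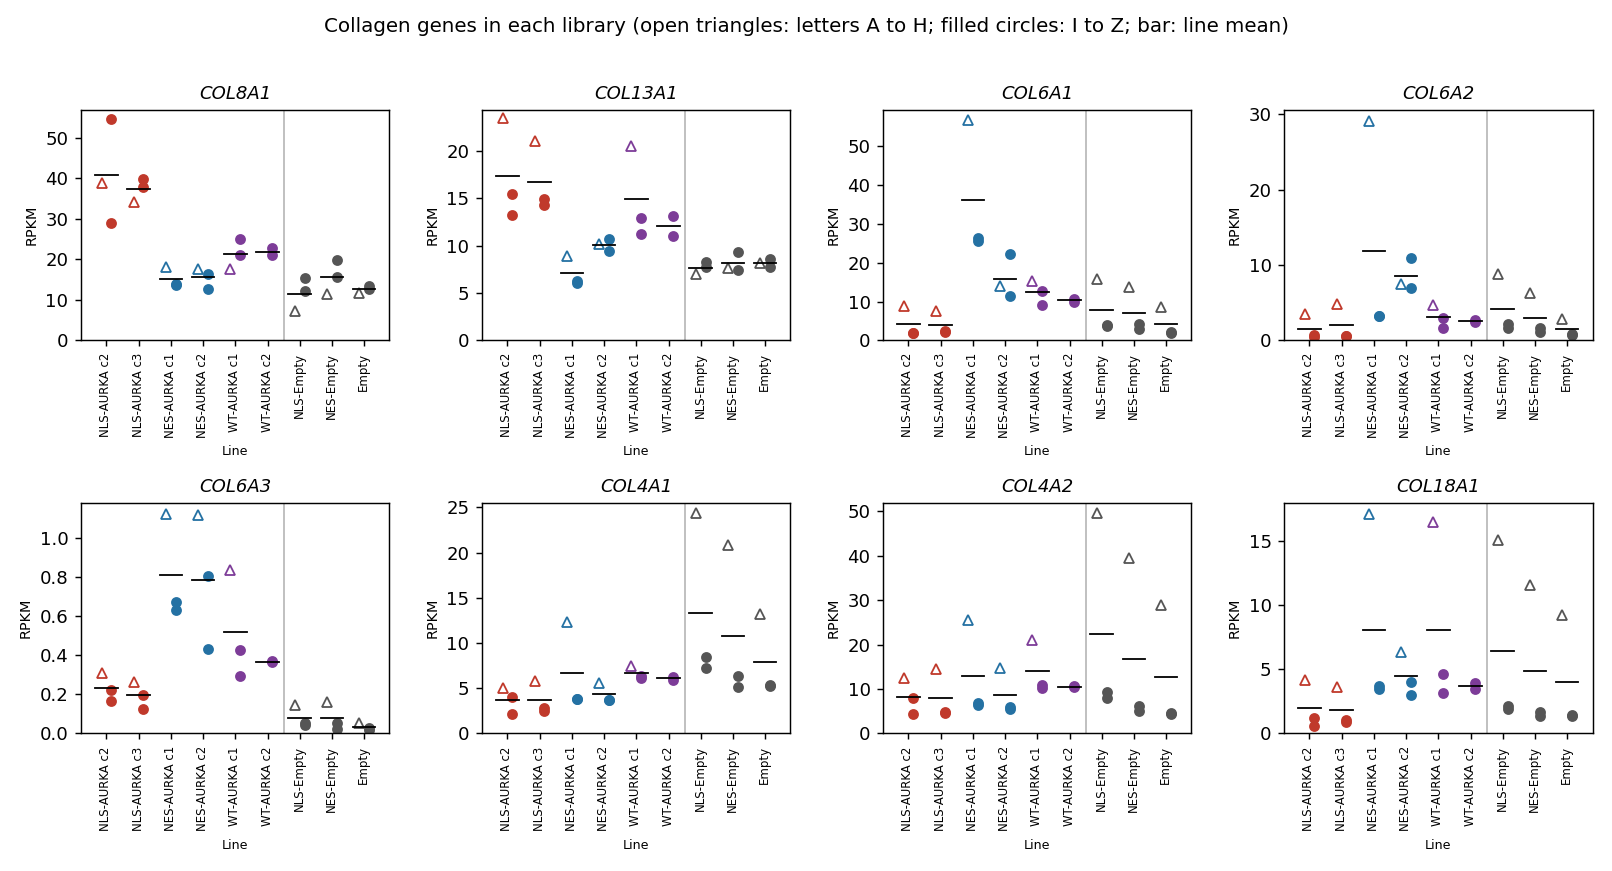
RPKM of 8 collagen genes in each library, grouped as NLS-AURKA, NES-AURKA, WT-AURKA and control, with open triangles for libraries A to H, filled circles for I to Z and a bar at the line mean. COL8A1 is highest in NLS-AURKA, COL6A1 is highest in NES-AURKA, and COL4A2 is 28.9 to 49.6 RPKM in the A to H control libraries against 4.46 to 9.39 RPKM in those lettered I to Z.

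Among subunits of laminin-binding integrins, ITGA6 was higher and ITGB4 lower, while ITGA3 (log2 difference 0.34, limma adjusted p = 0.139) and ITGB1 (-0.11, adjusted p = 0.6) were not called. ITGA6 had 183, 136, 180 and 193 RPKM in NLS-AURKA and 128, 121, 80.3 and 77.8 RPKM in NES-AURKA libraries lettered I to Z, without overlap. Its log2 difference was 0.67 (SE 0.164, limma adjusted p = 0.0137), and it was lost without NLS-AURKA c3 (0.56), F (0.56) or W (0.55), with an adjusted p of up to 0.0973, and without A, D and W together (0.49, adjusted p = 0.0603). ITGB4 had 15.4, 13.4, 17.9 and 16.9 RPKM in NLS-AURKA and 35.4, 31.7, 59.6 and 34.7 RPKM in NES-AURKA libraries lettered I to Z, apart, but 26.3 and 23.2 RPKM in NLS-AURKA and 36.6 and 16.7 RPKM in NES-AURKA libraries lettered A to H, where they overlap. ITGB4 differed on the log2 scale by -0.84 (SE 0.167, adjusted p = 0.00513) over all libraries, -1.26 (adjusted p = 0.00175) within I to Z and -0.003 (adjusted p = 0.998) within A to H, and -0.63 without library U (adjusted p = 0.052). ITGA2, the α subunit of a receptor for collagen and laminin, had 48.4, 28.0, 52.5 and 49.98 RPKM in NLS-AURKA and 34.7, 31.6, 35.1 and 25.1 RPKM in NES-AURKA, which overlap (log2 difference 0.60, SE 0.175, adjusted p = 0.0283, lost in 8 repeats). ITGAE, the α subunit of an E-cadherin receptor, was lower by -0.34 on the log2 scale (SE 0.105, adjusted p = 0.0332, lost in 20 repeats), with 2.54 to 3.62 RPKM in NLS-AURKA and 3.55 to 5.19 RPKM in NES-AURKA libraries lettered I to Z, which touch.

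NLS-AURKA was also set against WT-AURKA, a comparison that shares the NLS-AURKA lines with the one before. Again LAMB1 was lower and LAMB3 higher, and both were called in every setting. Of the 34 genes 6 were higher and 6 lower, 35.3% in all, close to the 36.1% of all tested genes that were called (18.7% higher and 17.4% lower), with a median log2 difference of -0.21 over the 34 and 0.01 over all genes. The integrins had 2 higher and 2 lower, the laminins 2 and 1, and the collagens 2 and 3. Without A, D and W 13 genes were called (41.8% of all genes were), and all 12 calls remained. WT-AURKA c2 has no A to H library, so its line mean lacks that set; within I to Z alone 22 genes were called, 6 higher and 16 lower, as were 38.5% of all genes. The count was 7 without NLS-AURKA c2 and 19 without either NES-AURKA clone.

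ITGA2 had 48.4, 28.0, 52.5 and 49.98 RPKM in NLS-AURKA and 29.2, 22.7, 23.4 and 28.4 RPKM in WT-AURKA libraries lettered I to Z, which overlap only through library X (log2 difference 0.89, SE 0.175, limma adjusted p = 0.00439). ITGAE had 3.02, 3.62, 2.54 and 2.81 RPKM in NLS-AURKA and 4.95, 5.34, 4.79 and 4.63 RPKM in WT-AURKA, without overlap (-0.73, SE 0.105, adjusted p = 0.000923). ITGA6 was higher by 0.72 (SE 0.164, adjusted p = 0.00903), a call lost only without NLS-AURKA c3 (0.61, adjusted p = 0.0689). ITGB5, the β subunit of the αvβ5 vitronectin receptor, had 15.7, 18.6, 16.7 and 18.0 RPKM in NLS-AURKA and 27.1, 22.7, 23.8 and 27.4 RPKM in WT-AURKA libraries lettered I to Z, without overlap. Its log2 difference was -0.43 (SE 0.103, adjusted p = 0.0106), -0.52 (adjusted p = 0.00184) within I to Z and 0.003 (adjusted p = 0.999) within A to H. It was lost without WT-AURKA c2, NLS-AURKA c2, NLS-AURKA c3 or O, with an adjusted p of up to 0.0765.

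LAMB2 was higher, with 14.2, 12.4, 12.1 and 11.8 RPKM in NLS-AURKA and 8.62, 6.92, 8.32 and 9.21 RPKM in WT-AURKA libraries lettered I to Z (log2 difference 0.78, SE 0.171, limma adjusted p = 0.00736). These ranges were apart, and the call was lost without WT-AURKA c2, NLS-AURKA c2, E, C or B, with an adjusted p of up to 0.0696. COL8A1 (0.81, SE 0.129, adjusted p = 0.00155) and COL12A1 (0.72, SE 0.211, adjusted p = 0.0269, lost in 9 repeats) were higher. COL6A1 (-1.49, SE 0.323, adjusted p = 0.00718), COL18A1 (-1.16, SE 0.230, adjusted p = 0.00446) and COL4A1 (-0.70, SE 0.183, adjusted p = 0.016, lost in 7 repeats) were lower. COL6A1 lost its call only without NLS-AURKA c2, where it was -1.47 with an adjusted p of 0.0502.

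**Figure D5:**
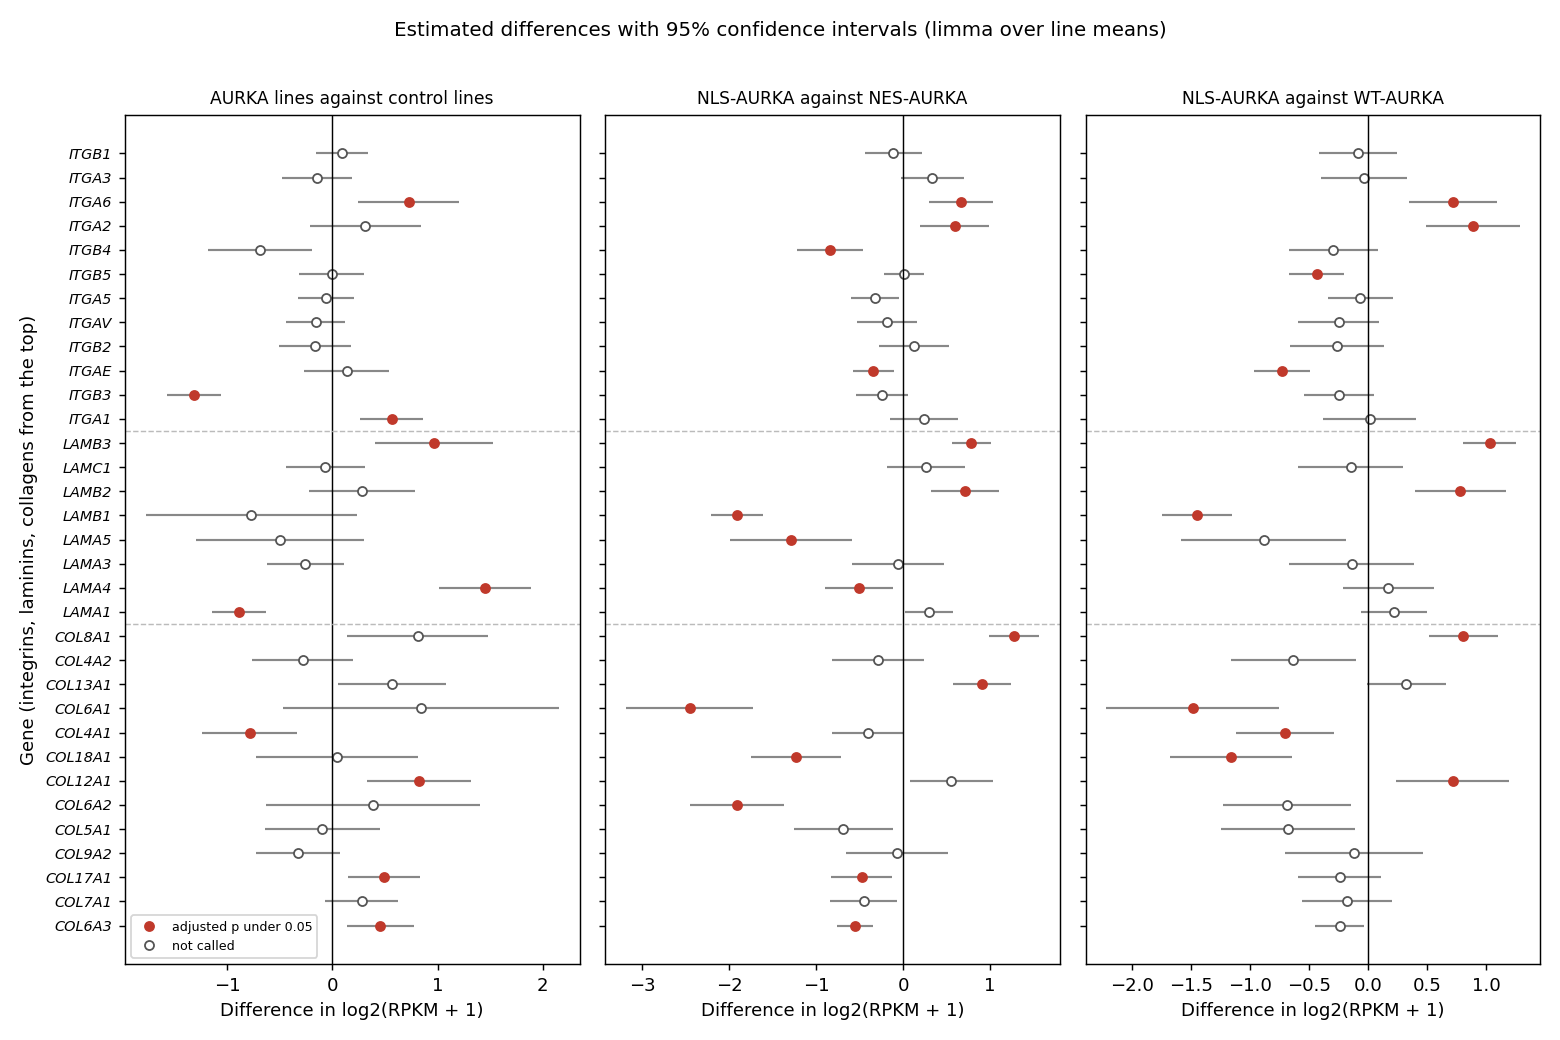
Log2 difference in RPKM plus 1 with its 95% confidence interval for 33 of the 34 genes in 3 comparisons: AURKA minus control lines, NLS-AURKA minus NES-AURKA and NLS-AURKA minus WT-AURKA. Filled red points are called at an adjusted p under 0.05 and open points are not; ITGB3 leads the lower genes of the first at -1.32 and COL6A1 those of the second at -2.46.

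NES-AURKA and WT-AURKA, which share guide and cDNA label, were the least different. Of the 34 genes 1 was higher and 1 lower, 5.88%, near the 4.87% of all tested genes that were called, 1.56% higher and 3.3% lower. COL6A2 was higher, with 3.23, 3.24, 10.97 and 6.95 RPKM in NES-AURKA and 2.97, 1.64, 2.41 and 2.75 RPKM in WT-AURKA libraries lettered I to Z (log2 difference 1.22, SE 0.239, limma adjusted p = 0.0278). ITGB5 was lower, with 18.5, 18.3, 22.3 and 18.4 RPKM in NES-AURKA and 22.7 to 27.4 RPKM in WT-AURKA libraries lettered I to Z (-0.45, SE 0.103, adjusted p = 0.0431). Neither pair of ranges overlaps there, but COL6A2 lost its call in 13 repeats and ITGB5 in 22. The mean of WT-AURKA c2 lacks A to H here too. Within lines that set differed from I to Z by a log2 of 1.42 for COL6A2 and -0.29 for ITGB5. The part of this imbalance in the 2 calls was not tested. Without A, D and W 6 genes were called (5.71% of all genes were), among which both calls remained, and without D alone 10 were. Under median centring or quantile normalization of the libraries both calls were higher ones, against 1 higher and 1 lower here.

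The matched clone comparisons set each construct against its own empty vector, and the NLS-AURKA clones stood out in number. In both NLS-AURKA clones 4 genes were higher (COL13A1, COL8A1, ITGA6 and LAMB3) and 4 lower (COL4A1, ITGB3, ITGB4 and LAMB1) at an adjusted p under 0.05 and a log2 difference of at least 1, where 4.51% of all genes were called, 2.38% higher and 2.13% lower. Without library G of NLS-Empty 4 genes were called. LAMB1 had log2 differences of -1.92 in each NLS-AURKA clone (SE 0.287, limma adjusted p = 6.91e-05 in c2 and 7.44e-05 in c3). It had 0.08 and -0.12 in NES-AURKA c1 and c2 and -0.18 and -0.58 in WT-AURKA c1 and c2, none of them called. LAMB3 had 1.51 and 1.59 in NLS-AURKA (SE 0.221, adjusted p = 5.31e-05 and 3.24e-05), 0.77 and 0.74 in NES-AURKA and 0.49 and 0.70 in WT-AURKA. ITGB4 had -1.39 and -1.27 in NLS-AURKA (SE 0.341, adjusted p = 0.00669 and 0.0135), -0.27 and -0.35 in NES-AURKA and -0.47 and -0.41 in WT-AURKA.

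Whether constructs differed in these matched differences was tested directly, and 5 of the tests over the 34 genes passed, and 8 did without library E. NLS-AURKA minus NES-AURKA gave, among others, LAMB1 at -1.90 (SE 0.351, limma adjusted p = 0.00183), COL8A1 at 1.70 (SE 0.302, adjusted p = 0.00118) and COL6A1 at -2.58 (SE 0.748, adjusted p = 0.0403), where 3.03% of all genes were called. NLS-AURKA minus WT-AURKA gave LAMB1 at -1.54 (SE 0.358, adjusted p = 0.0098), where 3.66% were called. NES-AURKA minus WT-AURKA gave none of the 34 by limma, with 2 at an unadjusted p under 0.05, where 0.246% of all genes were called. Between the clones of one construct limma called none of the 34; 0 genes had an unadjusted p under 0.05 for NLS-AURKA, 5 for NES-AURKA and 0 for WT-AURKA, where 0%, 1.08% and 0% of all genes were called.

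Neighbouring gene lists were read in the same fits, and their counts stand against the 19.2% of all genes called in AURKA against control lines. Of 18 other integrin ligands 11 were tested: in AURKA against control lines FN1 (fibronectin, 1.79, SE 0.277, limma adjusted p = 0.0025), TNC (tenascin-C, 1.47, SE 0.182, adjusted p = 0.00083) and CTGF (0.88, SE 0.193, adjusted p = 0.0122) were higher on the log2 scale and MFGE8 (-0.86, SE 0.09, adjusted p = 0.000389) lower. Of 16 other matrix receptors and integrin partners CD82 (a tetraspanin, 1.47, SE 0.278, adjusted p = 0.00622) and PLAUR (the urokinase receptor, 0.96, SE 0.108, adjusted p = 0.000549) were higher and DDR2 (a collagen receptor, -0.61, SE 0.114, adjusted p = 0.00602) lower. Of 22 tested focal adhesion genes 2 were higher (FERMT3 at 0.66 and ZYX at 0.51) and 2 lower (NEDD9 at -1.15 and LIMS1 at -0.51). By limma none of the 3 other hemidesmosome genes tested and none of the 6 other basement membrane genes tested was called (0 and 1 at an unadjusted p under 0.05), and of 16 collagen-processing genes P3H2 alone was (-0.64, SE 0.154, adjusted p = 0.0177). The calls of CTGF, NEDD9, FERMT3, ZYX and P3H2 were lost in at least 1 repeat without a line or library. Their limma adjusted p reached 0.063, 0.077, 0.0976, 0.1445 and 0.0799 there. CTGF and FERMT3 were also not called within I to Z (adjusted p = 0.107 and 0.0607). FERMT3 averaged 0.784 RPKM in AURKA and 0.100 RPKM in control lines. The other genes named for this comparison kept their calls in every such repeat.

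In NLS-AURKA against NES-AURKA 33.2% of all genes were called, and the counts of these lists stand against that share. NTN4, a netrin of basement membranes that binds laminin, was lower (-1.85, SE 0.134, limma adjusted p = 4.79e-05), as was SPARC (-0.69), while FRAS1 (0.83) and PXDN (0.53) were higher, 4 of 6 tested. TGFBI, a matrix protein that binds integrins and collagens, was lower (-2.10, SE 0.194, adjusted p = 0.000162) and so was TNC (-0.47), while NOV (0.97) and ICAM1 (0.89) were higher, 4 of 11. CSPG4 (1.31) and SDC1 (1.31), cell-surface proteoglycans, were higher and SDC4 (-1.12) and CD151 (-0.51), a tetraspanin partner of laminin-binding integrins, lower, within 3 higher and 4 lower of 16. Of 22 focal adhesion genes 7 were higher, with NEDD9 at 0.92 and TLN1 (talin) at 0.76, and 3 lower. Of 16 collagen-processing genes 1 was higher and 4 lower, the lower ones being PLOD3 (-0.78, SE 0.0906, adjusted p = 0.000424), BMP1 (-0.52), P4HA2 (-0.52) and P4HB (-0.36). SPARC, PXDN, TNC, ICAM1, CD151, BMP1 and P4HB lost their calls in at least 1 repeat without a line or library. Their limma adjusted p reached 0.0588, 0.1, 0.117, 0.159, 0.122, 0.081 and 0.183 there. PXDN and ICAM1 were also not called within I to Z (adjusted p = 0.0776 and 0.0532). SPARC averaged 0.0707 RPKM in NLS-AURKA and 0.778 RPKM in NES-AURKA lines. The other genes named for this comparison kept their calls in every such repeat.

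Most of these genes differed between the letter sets, as did most of all tested genes. Within lines, 27 of the 34 were called at a limma adjusted p under 0.05, 24 higher in A to H than in I to Z and 3 lower. Of all tested genes 73.2% were called, a share not split by direction here. The median log2 difference was 0.61 over the 34 genes and -0.09 over all genes. LAMA5 (2.36), LAMA3 (2.001), COL5A1 (1.76), COL18A1 (1.76) and COL4A2 (1.73) were the highest and ITGAE (-0.91), ITGA6 (-0.49) and ITGB5 (-0.29) the lower ones. LAMB3 (0.01, adjusted p = 0.93) was not called. What the letters stand for is not stated. With a letter-set term and lines as blocks, 10 of the 34 genes were called in AURKA against control lines (27.6% of all genes were), 19 in NLS-AURKA against NES-AURKA (43.1%), 18 in NLS-AURKA against WT-AURKA (41.4%) and 5 in NES-AURKA against WT-AURKA (10.1%). In bulk RNA, fewer cells that express a gene and less RNA per cell cannot be told apart.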

How the data were processed

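Reads were handled with HISAT2, SAMtools and Partek on hg19, per the submitters' processing notes; no source used here gives their versions, the annotation or the strand setting. A table of RPKM per gene (33562 symbols by 26 libraries) was deposited by the authors. RPKM are not counts, so limma (3.58.1, R 4.3.3) with a mean-variance trend was run on log2(RPKM + 1), a scale that understates the differences of low genes, for the 12589 genes with at least 1 RPKM in 2 libraries, with Benjamini-Hochberg adjustment over all of them. Groups were compared over 9 line means. The fit of AURKA against control lines had 2 group coefficients, so its spread includes differences between constructs. The fit between constructs had 4 group coefficients. Clones were compared with matched controls over the 26 libraries with 1 coefficient per line. The fits were tested on simulated data. Members and lists were chosen with earlier results of these data known. In each family and comparison, up to 4 called members with the largest differences that average at least 1 RPKM in the higher group, the 3 most abundant members and a few chosen genes have full values; 1 gene's own results are not reported here, though counts over the 34 include it. Without a stated strand setting, reads of overlapping antisense genes cannot be told apart; COL18A1-AS1, COL1A2-AS1, COL4A2-AS2 and COL5A1-AS1 stayed at or under 0.159 RPKM. Estimated depth covers counting error only. Alternatives are a pseudocount of 0.1, no filter, robust fitting, 2 other scalings, each letter set, a letter-set term with lines as blocks, and omissions of lines or libraries. Promoter windows are from RefSeq (GRCh38.p14), found for 56 of 79 members by symbol.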

Additional observations from a re-analysis of the deposited data

Results flagged for a closer look

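On the log2(RPKM + 1) scale, the mean of NES-AURKA c2 lay far below the means of the other 5 AURKA lines for 3 genes: the gap to the nearest line, as a share of the whole range of the 6, was 0.675 for ITGA1, 0.666 for ITGA3 and 0.727 for LAMC1, above Dixon's 95% critical value for 6 values. With means of RPKM the shares were 0.431, 0.561 and 0.645, so that only LAMC1 stayed above it. Of 34 genes looked at in this way chance would give about 5%. Libraries A, U and V of this line had 57.9, 151.0 and 106.6 RPKM of ITGA3, 0.668, 1.80 and 0.977 RPKM of ITGA1 and 24.5, 20.1 and 21.1 RPKM of LAMC1. Library A, which stood apart in AURKA, was thus the lowest of the 3 for ITGA3 and ITGA1 and the highest for LAMC1; the part of this library in the gaps was not tested.

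The matched difference from the empty vector differed between constructs for COL6A1, COL8A1 and LAMB1 in tests of that difference. NLS-AURKA minus NES-AURKA was -2.575 for COL6A1, 1.705 for COL8A1 and -1.899 for LAMB1 on the log2 scale, and NLS-AURKA minus WT-AURKA was -1.537 for LAMB1. Within the I to Z libraries these 4 values were -2.91, 1.76, -1.91 and -1.40. The constructs also differ in guide and cDNA label, which cannot be told apart from the signal.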

How the results depend on the processing

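Of the 10 genes called between AURKA and control lines 5 were called with no filter on low values (5.77% of all genes, then over every gene of the table, against 19.2%), and 3 to 10 when 1 line or library was left out. The 17 calls of NLS-AURKA against NES-AURKA became 3 within A to H alone (7.83% of all genes against 33.2%) and 10 to 19 on leaving 1 out. The 12 of NLS-AURKA against WT-AURKA became 22 within I to Z (38.5% of all genes against 36.1%), 3 within A to H (3.07%) and 7 to 19 on leaving 1 out. The 2 of NES-AURKA against WT-AURKA became 1 with a pseudocount of 0.1 (4.62% of all genes against 4.87%), 0 by limma with no filter (11 at an unadjusted p under 0.05; 1.26% of all genes), 0 within A to H (6 unadjusted; 0% of all genes), 5 with lines as blocks and a letter-set term (10.1%), 6 without A, D and W (5.71%), and 0 to 10 on leaving 1 out. In both clones, the 1 call of WT-AURKA became 2 with a pseudocount of 0.1, 4 within I to Z, 3 with the letter-set term (4.84, 3.68 and 3.1% of all genes against 2.62%) and 0 to 1 on leaving 1 out. The 1 call of NES-AURKA became 4, 2 and 5 in those settings (3.50, 2.26 and 1.99% against 1.70%), 2 under quantile normalization (1.73%) and 0 to 1 on leaving 1 out, and the 8 of NLS-AURKA 4 to 9. The 5 differences of matched differences became 19 within I to Z, 17 with the letter-set term (4.67 and 3.43% of all such tests against 2.31%) and 4 to 8 on leaving 1 out. Among genes called over all libraries or in the setting tried, the sign turned in NLS-AURKA against WT-AURKA for ITGB5 within A to H (0.002968) and for LAMA4 within I to Z (-0.285), which was not called over all libraries; the cause was not tested. Genes called in neither turned sign too, in that comparison ITGA1 and LAMA1 within I to Z and ITGA3, ITGAV, ITGB2 and ITGB4 within A to H among them. Within A to H each line has 1 library and WT-AURKA is 1 line, assumed to vary like the other groups. Counting error is largest for genes near 1 RPKM. No paired analysis was possible because the libraries carry letters and no shared replicate numbers; the fit with lines as blocks and a letter-set term uses the letter sets instead.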
